A study of Rattus norvegicus with 311 samples.

Results

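Phenobarbital at 1 mM was compared with vehicle in cultured rat liver cells, taking all sampling days together and then each day alone. Of the 311 libraries in the series, 22 came from wells with phenobarbital 1 mM (8 on day 1, 6 on day 3 and 8 on day 7) and 24 from vehicle wells (8 on each day). They were chosen by the well descriptions in the count table's column names, which give culture, compound, dose, day and plate. All wells held purchased primary hepatocytes of male Sprague Dawley rats on collagen-coated multiwell plates, either alone (monoculture, 11 phenobarbital and 12 vehicle libraries) or with non-parenchymal liver cells, which had been purified on a density gradient (co-culture, 11 and 12 libraries). Each exposure lasted 24 hours and ended on day 1, 3 or 7 after plating, so the day is the age of the culture and not the length of exposure. Transcripts were counted with TempO-Seq, in which pairs of short detector oligonucleotides are ligated on their target RNA and sequenced, so that only targeted genes have values. The labels speak of biological replicates without naming animals or cell lots, and each p-value is set against well-to-well spread, which may be technical.

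The labels conflict at 2 points that bear on every result. In monoculture all 33 phenobarbital libraries, 11 of them at 1 mM, carry ketoconazole as compound label while their well description says phenobarbital, and the description was followed. Co-culture, where both labels name phenobarbital, is therefore also given alone. The dose label writes µM where the study's design text writes mM, and mM was used. Day 3 has vehicle wells but no phenobarbital 1 mM well on plate 3.

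Phenobarbital is a barbiturate and the classical inducer of drug metabolism in liver. It acts mainly through the nuclear receptor CAR (gene Nr1i3), which it releases from the cytoplasm by an indirect route, and in part through the related receptor PXR (Nr1i2). Both receptors bind DNA with the partner RXR and raise cytochrome P450 enzymes of the CYP2B, CYP2C and CYP3A families, conjugating enzymes such as UDP-glucuronosyltransferases and glutathione transferases, and transporters. CYP2B is the classical readout in rat liver. Cyp2b1 has no probe of that name here, so Cyp2b2 was followed, as a single gene and not as a measure of the family.

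Library totals ran from 3660212 to 9923465 counts with phenobarbital 1 mM and from 3392976 to 10820668 in vehicle. One vehicle library, monoculture day 3 on plate 1, had the fewest genes detected (8214, against 10299 to 14800 in the phenobarbital libraries) and its 50 most abundant genes held 39.5% of its counts. Among the phenobarbital libraries, 3 from co-culture (day 3 plate 1 and day 7 plates 1 and 5) were least like the others of their group, with mean correlations of log2 values of 0.741, 0.747 and 0.792. Of 28 genes named and called in the pooled comparison, 7 were still called without these 3 libraries. Levels are CPM, each gene's share of the counts scaled to a common library size, on TMM-scaled libraries. A change is a log2 fold change ± its standard error, from edgeR's quasi-likelihood test with blocks for day by culture and for plate. Every adjusted p is by Benjamini-Hochberg, taken across the genes tested in that comparison, with 0.05 as threshold.

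Among the genes that rose were 3 enzymes of glucuronidation and the P450 Cyp2b2. Pooled over days and cultures, Ugt2b1, which attaches glucuronic acid to steroids and drugs, rose by 2.48 ± 0.36 (adjusted p = 1.36e-04), with phenobarbital above vehicle on the same plate in 22 of 22 pairs. Ugt2b10 rose by 2.16 ± 0.40, Cyp2b2 by 2.52 ± 0.53, and the glutathione transferase Gsta2 by 1.48 ± 0.33 (edgeR adjusted p 0.00704, 0.0257 and 0.0265; 19, 18 and 18 of 22 pairs). The mineralocorticoid receptor Nr3c2 and the thyroid hormone receptor Thrb rose by 0.90 ± 0.16 and 0.70 ± 0.14. Caveolin-1 (Cav1) fell by 0.94 ± 0.19 and skeletal actin (Acta1) by 1.22 ± 0.26.

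Of 12422 genes tested, 57 passed (0.459%), of which 42 were higher (0.338%) and 15 lower (0.121%). At an unadjusted p under 0.05 there were 2004 genes (16.1%), 1300 higher and 704 lower, and DESeq2 called 504. The count rests on the whole set of wells and on the plate block: edgeR called 1 gene without the block, 5, 2, 5 and 3 without plates 1, 3, 5 and 7, 27 without the sparse day 3 vehicle library and 7 without the 3 co-culture libraries. Ugt2b1 was called in each of the 17 alternatives that kept both cultures, and in neither culture alone.

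The sequences upstream of 3 of these genes are shown because they lie before the start sites of the genes most often used to read phenobarbital's action here, 1 from each enzyme family. They come from RefSeq, build GRCr8, read 5′ to 3′ up to the base before the annotated start: Ugt2b1 at chr14:21378632-21378881 on the plus strand, Cyp2b2 at chr1:90722031-90722280 on the plus strand and Gsta2 at chr8:88077093-88077342 on the minus strand. Capitals mark matches on either strand to AGTTCA, a variant of the hexamer to which nuclear receptors bind.
Ugt2b1: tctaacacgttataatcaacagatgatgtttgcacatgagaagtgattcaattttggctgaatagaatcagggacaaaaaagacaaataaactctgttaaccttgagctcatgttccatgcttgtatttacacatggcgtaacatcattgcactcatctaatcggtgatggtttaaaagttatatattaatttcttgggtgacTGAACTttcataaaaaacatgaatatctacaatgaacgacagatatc
Cyp2b2: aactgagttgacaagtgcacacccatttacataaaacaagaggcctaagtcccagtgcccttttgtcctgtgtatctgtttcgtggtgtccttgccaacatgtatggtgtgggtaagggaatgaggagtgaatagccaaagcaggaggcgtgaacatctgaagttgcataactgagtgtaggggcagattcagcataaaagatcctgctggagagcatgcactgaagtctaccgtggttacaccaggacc
Gsta2: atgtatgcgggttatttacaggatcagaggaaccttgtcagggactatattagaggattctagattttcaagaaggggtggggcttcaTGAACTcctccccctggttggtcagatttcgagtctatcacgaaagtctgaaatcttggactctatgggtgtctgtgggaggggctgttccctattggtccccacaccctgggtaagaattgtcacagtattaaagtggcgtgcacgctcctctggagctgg
AGTTCA occurred in 12.2% of the 33469 promoters of that length in the table, and AGGTCA, the canonical hexamer, in 14.1%. Ugt2b1 and Gsta2 each held 1 AGTTCA, on the opposite strand, 47 and 162 bases before the start. Neither hexamer occurred in the window of Cyp2b2, nor in those of Ugt2b10 and Ugt2b35. The best known phenobarbital-responsive enhancer of rat CYP2B genes lies further upstream than this window, and a match is a description of letters, not of binding.

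Ugt2b1 showed the response in nearly every well. On day 1 its level in vehicle had a lowest value of 4.81, a median of 11.2 and a highest value of 20.8 CPM (8 libraries), and with phenobarbital 20.3, 45.7 and 81.4 CPM (8 libraries). On day 3 vehicle libraries ran from 0 to 1.79 CPM with a median of 0.196 and 3 of 8 at 0 counts, and phenobarbital libraries from 1.64 to 15.3 CPM with a median of 8.12 (6 libraries). On day 7 the values were 0.326, 2.25 and 12.7 CPM in vehicle and 1.15, 12.5 and 47.5 CPM with phenobarbital. The ranges touched on each day, with 7 of 8, 5 of 6 and 4 of 8 phenobarbital libraries above the highest vehicle library, while each treated well stood above its own plate's vehicle well. The medians of both groups were lower on days 3 and 7 than on day 1.

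Ugt2b10, a neighbour of Ugt2b1 in the same gene cluster, was separated from vehicle on day 1. On day 1 vehicle libraries had 0.188, 7.25 and 15.9 CPM (lowest, median and highest) and phenobarbital libraries 16.9, 23.8 and 43.7 CPM, and the groups did not overlap. On day 3 the medians were 0.291 and 0.994 CPM, 3 of 8 and 2 of 6 libraries had 0 counts, and 2 of 6 phenobarbital libraries, up to 8.41 CPM, exceeded the highest vehicle value of 2.38 CPM. On day 7 medians were 0.805 and 3.61 CPM, and 4 of 8 phenobarbital libraries lay above the highest vehicle value of 3.66 CPM. Its pooled call was lost without plate 3, 5 or 7 (highest edgeR adjusted p 0.18).

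Ugt2b35 was the third glucuronosyltransferase called, at 0.96 ± 0.22 (edgeR adjusted p 0.0381). Day 1 medians were 14.3 CPM in vehicle and 18.2 CPM with phenobarbital, day 3 medians 5.46 and 20.9 CPM, and day 7 medians 22.1 and 58.2 CPM. The groups overlapped on all days, and on day 1 no treated library exceeded the highest vehicle library. The call was lost without plate 1, 3 or 7 (highest adjusted p 0.28), without the sparse vehicle library (0.0509) and without the 3 co-culture libraries (0.133).

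Of 7 genes named Ugt2 with a probe, 6 were tested, 3 rose, and all 6 had a pooled change above 0. Over all genes tested 0.338% were called higher and 52.7% were above 0. The family was gathered after members of it had been called, so its counts are no independent support. The 3 that did not pass were Ugt2b15 at 0.65 ± 0.26, Ugt2b7 at 0.66 ± 0.31 and Ugt2a1 at 0.97 ± 0.44 (edgeR adjusted p 0.201, 0.269 and 0.259), and these were looked up after the values of the other genes were seen. The Ugt2b genes are close copies of each other that lie side by side in RefSeq's rat annotation, and probe sequences were not used here, so how far a probe reads a neighbour's RNA was not tested.

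Cyp2b2 was scarce in these cultures. On day 1, 5 of 8 vehicle libraries had 0 counts and the highest had 2.69 CPM, against a median of 4.46 and a highest value of 13.9 CPM with phenobarbital, where 1 of 8 had 0 counts. On day 3 vehicle ran from 0 (5 of 8 libraries) to 12.8 CPM, the last in the sparse plate 1 library, and phenobarbital from 0.234 to 7.19 CPM with a median of 2.38. On day 7 vehicle ran from 0.489 to 4.27 CPM and phenobarbital from 0.192 to 41.6 CPM with a median of 8.36. Treated wells were thus above most vehicle wells on days 1 and 7, with overlap on each day. The call was lost without any single plate (edgeR adjusted p 0.0722, 0.131, 0.0582 and 0.141 without plates 1, 3, 5 and 7). Cyp2b3, the other CYP2B gene tested, was more abundant and did not pass. It stood at 0.345 ± 0.239 (edgeR adjusted p 0.486), from a mean of 34.2 CPM in vehicle to 46.6 CPM.

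**Figure D1:**
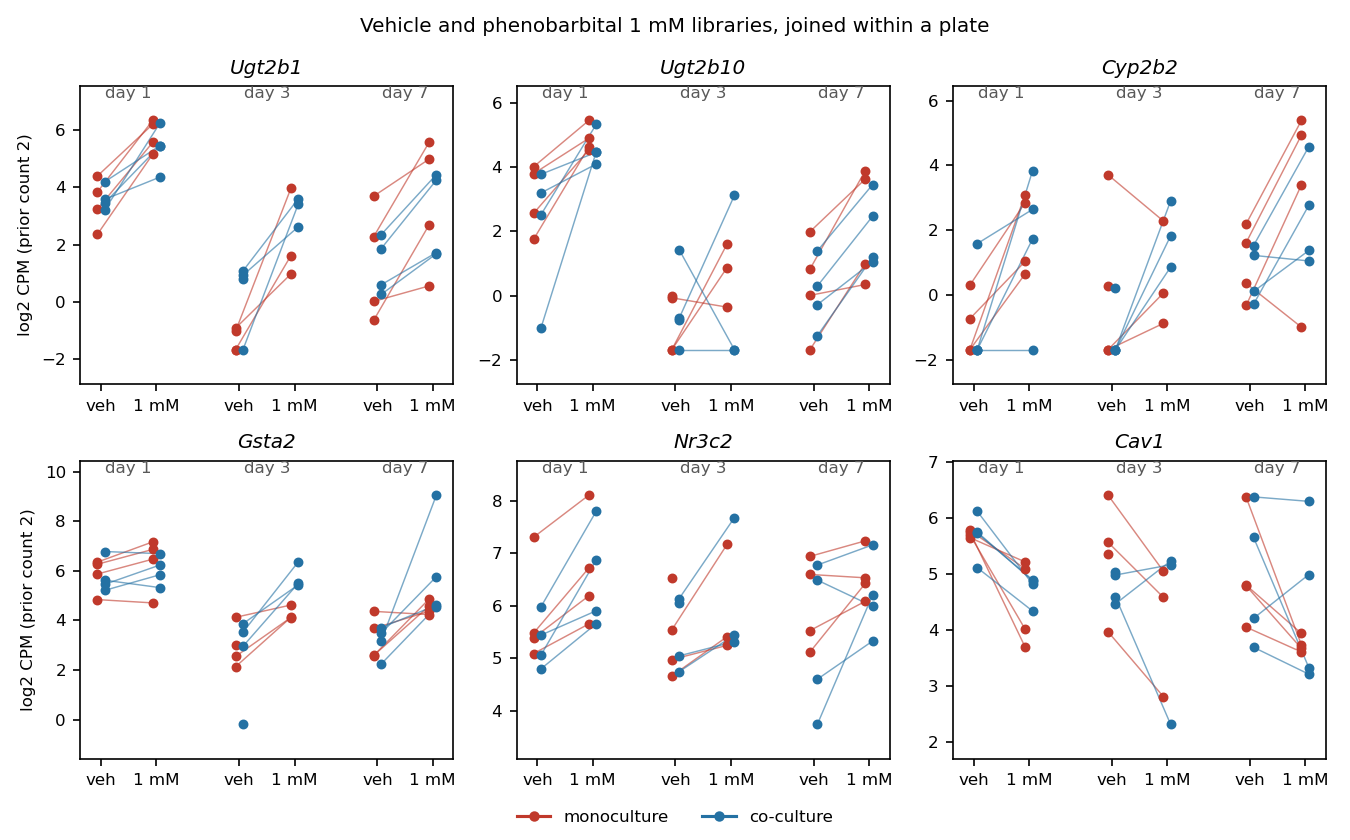
Log2 CPM (prior count 2) of 6 called genes in each vehicle (veh) and phenobarbital 1 mM library by day; a point is 1 library, lines join wells of the same culture and plate, red is monoculture and blue co-culture. For Ugt2b1 every line rises, in 22 of 22 pairs, and for Cav1 most fall, in 19 of 22.

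The other P450 genes of the CAR and PXR list did not pass. Cyp3a23/3a1 stood at 1.46 ± 0.55 (edgeR adjusted p 0.168), from a mean of 1.17 CPM in vehicle to 1.80 CPM, and Cyp2c6v1, a CYP2C enzyme, at 0.54 ± 0.24 (0.258), from 59.2 to 90.2 CPM. Of 24 genes written into the list 14 had a probe and 9 were tested; 1 rose, 0 fell, 8 had a change above 0 and the median was 0.54. Over all 12422 genes 0.338% were called higher, the median change was 0.02 and 6542 were above 0. At an unadjusted p under 0.05, 5 of the 9 were higher and 0 lower (55.6%, against 16.1% over all genes in either direction). The P450 median differed by day. It was -0.165 on day 1 alone (3 of 8 tested above 0), 0.674 on day 3 (5 of 7) and 1.796 on day 7 (8 of 8). At an unadjusted p under 0.05 there were 1 higher on day 1, 1 lower on day 3 and 6 higher on day 7. These are 12.5%, 14.3% and 75% of the list, against 15.2%, 8.23% and 3.74% over all genes. Without day 7 the pooled P450 median was 0.074, with 5 of 8 above 0. Over 20 settings it ran from 0.074 to 0.958. Symbols with near-identical copies, such as those of CYP3A, may share reads.

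Among conjugating and hydrolysing enzymes, 4 of 31 tested rose and 0 fell, with a median of 0.29. The 4 were Ugt2b1, Ugt2b10, Ugt2b35 and Gsta2. Over all genes tested 0.338% were called higher. At an unadjusted p under 0.05, 8 of the 31 were higher and 0 lower (25.8%, against 16.1% over all genes in either direction). Ephx1, microsomal epoxide hydrolase and a textbook phenobarbital target, stood at 0.29 ± 0.17 (edgeR adjusted p 0.388), from a mean of 865 to 1050 CPM. Gsta2 conjugates glutathione to electrophiles. Its day 1 medians were 53.6 CPM in vehicle and 81.7 CPM with phenobarbital, its day 3 medians 7.59 and 33.6 CPM, and its day 7 medians 9.79 and 23.8 CPM. On day 7 6 of 8 and on day 3 4 of 6 treated libraries exceeded the highest vehicle library, against 2 of 8 on day 1. One co-culture library of day 7, plate 1, stood at 532 CPM, and without it and the other 2 unlike co-culture libraries the edgeR adjusted p was 0.0321. The call was lost without any single plate (0.0722, 0.0937, 0.169 and 0.244).

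Transporters, electron supply and receptors gave no called member. Of 15 transporters tested 13 had changes above 0, with a median of 0.38, and 10 of 15 with a median of 0.18 without the 3 co-culture libraries. With the share of the 50 most abundant genes as covariate, 8 of 15 were above 0 and the median was 0.02. The export pumps Abcc2 and Abcc3 stood at 0.62 ± 0.26 and 0.38 ± 0.35 (edgeR adjusted p 0.222 and 0.616). The 15 genes of electron supply and haem had a median of 0.04, with the P450 reductase Por at 0.09 ± 0.13 and Alas1, the rate-limiting enzyme of haem synthesis, at -0.10 ± 0.17. Among 25 receptors and partners the median was 0.16. Nr1i2 stood at 0.42 ± 0.12 (0.0718), from 87.2 to 112 CPM, and Nr1i3 at 1.19 ± 0.50 (0.223). Nr1i3 was near the limit of detection, with means of 1.49 CPM in vehicle and 2.64 CPM with phenobarbital. The counts of 0 called members come from edgeR. At an unadjusted p under 0.05, 3 transporters, 1 gene of electron supply and haem, and 9 receptors and partners (6 higher, 3 lower) were present. These are 20%, 6.67% and 36% of the lists, against 16.1% over all genes tested. In that order DESeq2 called 0, 0 and 2 (1 higher, 1 lower).

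Of 17 growth and metabolic targets of CAR tested, 0 passed edgeR and DESeq2 called 1. At an unadjusted p under 0.05, 1 of them was higher and 3 lower (23.5%, against 16.1% over all genes). Their median was 0.02, and Gadd45b, a growth arrest and DNA damage gene that CAR raises in mouse liver, stood at -0.42 ± 0.21 (edgeR adjusted p 0.303). Pck1, the gluconeogenic enzyme that CAR represses, stood at 0.05 ± 0.22 (0.94). Cyp7a1, the rate-limiting enzyme of bile acid synthesis, was too low to be tested, with means of 0.300 and 0.0918 CPM.

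Outside the drug-metabolism lists, 2 hormone receptors were among the clearest rises. Nr3c2 had day 1 medians of 42.5 CPM in vehicle and 89.0 CPM with phenobarbital, day 3 medians of 39.6 and 42.8 CPM and day 7 medians of 67.8 and 79.8 CPM. The ranges overlapped on each day, and the treated well was higher in 20 of 22 pairs (edgeR adjusted p 0.0034). For Thrb the day 1 medians were 15.1 CPM in vehicle and 30.2 CPM with phenobarbital, those of day 3 20.6 and 24.2 CPM and those of day 7 23.8 and 36.0 CPM, with the treated well higher in 19 of 22 pairs (0.0115). The call of Nr3c2 was lost without plate 5 or 7 (0.13) and that of Thrb without plate 1, 3 or 7 (0.181), and both were lost without the plate block (0.334 and 0.312). Thrb also missed the threshold without the 3 co-culture libraries (0.0517).

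The other named genes that rose were diverse. Zkscan1, a zinc finger protein, Dock3, a guanine nucleotide exchange factor, Sdccag8, a centrosomal protein, Ubxn2b, an adaptor of the p97 ATPase, and Mob3b, a MOB kinase activator family member, rose by 0.88 ± 0.18, 0.81 ± 0.18, 0.68 ± 0.15, 1.13 ± 0.25 and 0.58 ± 0.13 (edgeR adjusted p 0.0157, 0.0265, 0.0265, 0.0265 and 0.0265). The larger changes among them sat in genes of few or uneven counts. Tdrd15, a Tudor domain gene, rose by 2.53 ± 0.51, AABR07021930.1 by 2.50 ± 0.47 and AABR07050321.2 by 1.94 ± 0.42. AABR07021930.1 ran from 37.4 to 299 CPM with phenobarbital and from 7.66 to 152 CPM in vehicle on day 7, and its day 1 median with phenobarbital was 89.3 CPM. LOC108348266, which the rat gene reference used here does not hold, rose by 3.71 ± 0.55 (1.36e-04) but in 12 of 22 pairs. Its median was at most 0.434 CPM in either group on days 1 and 3, and on day 7 it was 1.62 CPM in vehicle (highest 11.3) and 7.83 CPM with phenobarbital (highest 76.6).

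**Figure D2:**
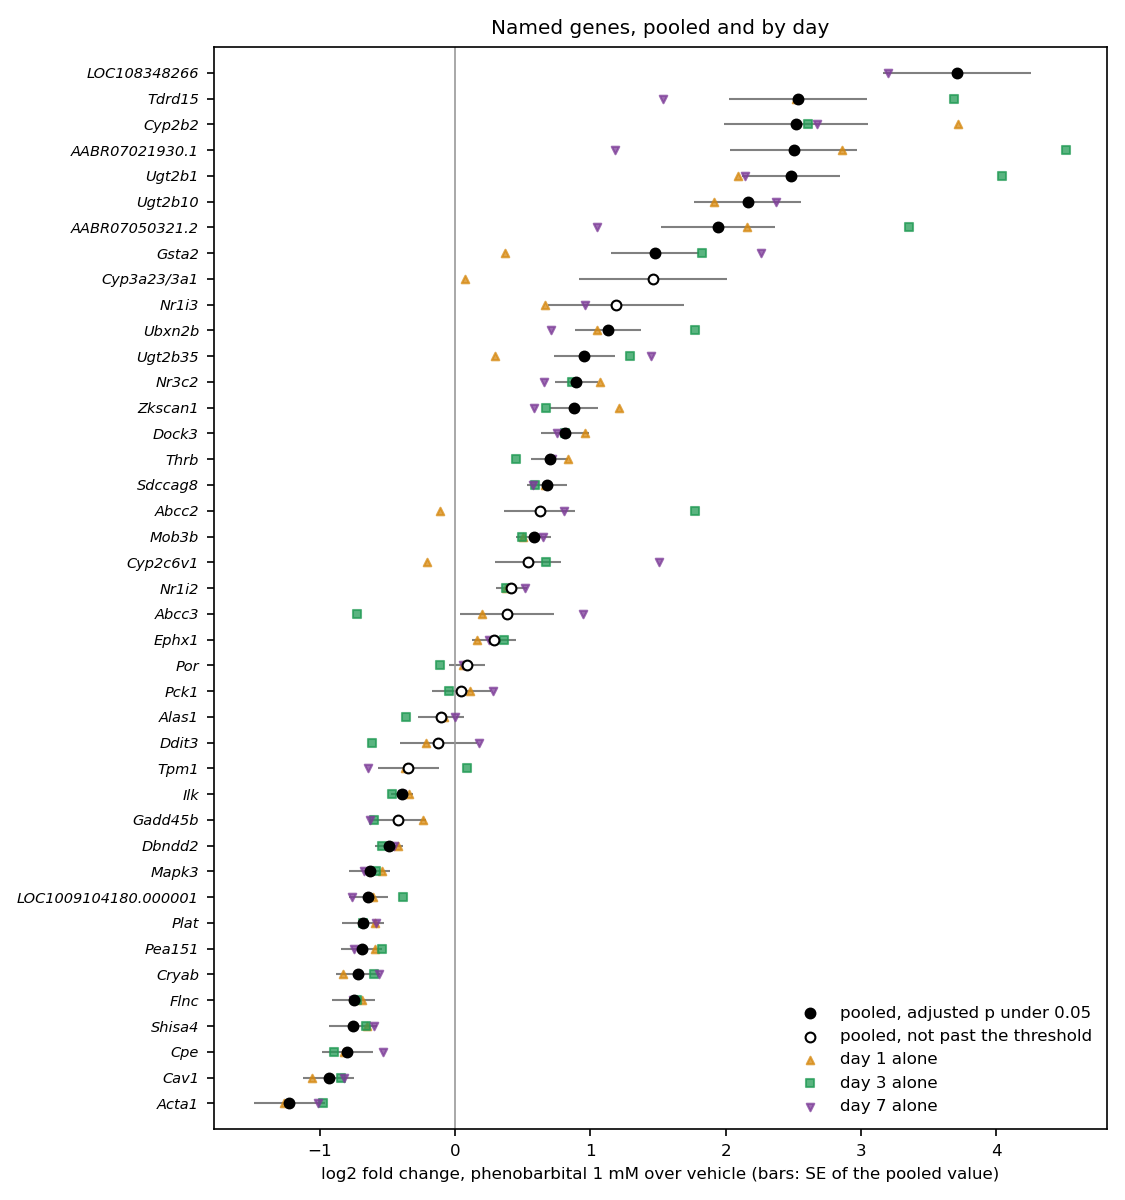
Log2 fold change of phenobarbital 1 mM over vehicle for the named genes; circles are pooled values with SE bars, filled where the edgeR adjusted p is under 0.05, and coloured marks are each day alone. Cyp2b2, Ugt2b1 and Ugt2b10 lie above 1.9 on each day on which they were tested, whereas Gsta2 runs from 0.37 on day 1 to 2.26 on day 7.

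Of the 15 genes that fell, 12 are described here. Cav1, which coats the membrane pits called caveolae, fell by 0.94 ± 0.19 (edgeR adjusted p 0.0157), with medians of 53.1 CPM in vehicle and 28.5 CPM with phenobarbital on day 1, then 32.0 and 28.3 CPM for day 3 and 27.4 and 12.7 CPM for day 7. On day 1 7 of 8 treated libraries lay below the lowest vehicle library. The call was lost without any single plate (0.0603 to 0.13) and without the 3 co-culture libraries (0.0517). Acta1 fell by 1.22 ± 0.26 (0.0265), with medians of 128 and 50.1 CPM on day 1 and of 619 and 347 CPM on day 3, and highest values of 257 and 110 CPM on day 7. The ranges overlapped on each day. The call of Acta1 was lost without any single plate (0.0937 to 0.201) and without the 3 co-culture libraries (0.065). Ilk, the integrin-linked kinase, fell by 0.39 ± 0.08 and the actin cross-linker Flnc by 0.75 ± 0.16 (0.0257 and 0.0265).

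The remaining named falls were smaller in level or in change. Cryab, a small heat shock protein of muscle and lens, fell by 0.72 ± 0.17, the tissue plasminogen activator Plat by 0.68 ± 0.16, the carboxypeptidase Cpe by 0.80 ± 0.19, the kinase Mapk3 (ERK1) by 0.63 ± 0.15, Shisa4 by 0.75 ± 0.18 and Dbndd2 by 0.49 ± 0.11 (edgeR adjusted p 0.0348, 0.0346, 0.0439, 0.0439, 0.0443 and 0.0265). Probes written Pea151 and LOC1009104180.000001 in the count table fell by 0.69 ± 0.16 and 0.64 ± 0.14. Across the 12 lower genes named, the treated well was lower in 18 to 21 of 22 pairs. These genes were chosen by p from a fit of the same wells, so the pair counts are no independent support. The same holds for the pair counts of the genes that rose.

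The cytoskeleton list leaned the same way beyond its single called member. Of 36 genes tested, 1 fell (Acta1), 0 rose and 34 had a change below 0. Over all genes tested 0.121% were called lower. At an unadjusted p under 0.05, 18 of the 36 were lower and 0 higher (50%), against 704 lower and 1300 higher over all genes (16.1%). The median was -0.40 against 0.02 over all genes. Tropomyosin 1 (Tpm1) stood at -0.35 ± 0.23 (edgeR adjusted p 0.454), from a mean of 11300 to 8690 CPM. The median stayed between -0.47 and -0.31 over 20 settings, and at most 8 members were called lower in any of them.

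Markers of cells other than hepatocytes were read beside these genes. Of 24 stellate and mesenchymal markers tested, of which 2 are also in the cytoskeleton list, 0 passed edgeR, DESeq2 called 3 lower, and the median was -0.52. At an unadjusted p under 0.05, 13 were lower and 0 higher. That is 54.2% of the list, against 16.1% over all genes in either direction. Summed over the list, day 7 co-culture libraries ran from 9150 to 30900 CPM in vehicle and from 6610 to 15900 CPM with phenobarbital, and day 7 monoculture libraries from 6970 to 21700 and from 3650 to 16000 CPM. The 21 macrophage and 19 endothelial markers had medians of -0.22 and -0.26 with 0 called by edgeR or DESeq2 and 1 of each lower at an unadjusted p under 0.05, and 0 of the 21 and 6 of the 19 were above 0. Their medians ran from -0.37 to 0 and from -0.44 to 0.15 over 20 settings. The endothelial median was 0.02 without plate 7 and 0.15 with the share of the 50 most abundant genes as covariate, where the macrophage median was 0 with 11 of 21 above 0. Their part in the falls of Cav1, Acta1 and the cytoskeleton list was not tested, and in bulk wells fewer cells of a type and less RNA per cell cannot be told apart. Of 17 lymphocyte markers with a probe 2 were tested, and the list's summed level was at most 44.3 CPM. The 9 cholangiocyte markers and 2 neutrophil and erythroid markers tested had medians of -0.12 and -0.51, with 0 called by either tool. Of 47 hepatocyte functions tested, 0 were called by edgeR and 1 by DESeq2, 2 had an unadjusted p under 0.05, 32 were above 0 and the median was 0.05. On day 1 alone 9 of 47 were above 0, with a median of -0.17. On that day 8 were lower and 0 higher at an unadjusted p under 0.05 (17%). Over all 10273 genes tested on day 1, 742 were lower and 817 higher at that p (15.2% in either direction). On day 7 alone 42 of 46 were above 0, with a median of 0.22. On each day edgeR called 0. The labelled hepatocytes were present in both groups, with summed marker levels on day 1 of 63800 to 151000 CPM with phenobarbital and 85200 to 166000 CPM in vehicle. On day 7 these levels were lower in both groups, at 13600 to 58000 CPM with phenobarbital and 7620 to 62900 CPM in vehicle.

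**Figure D3:**
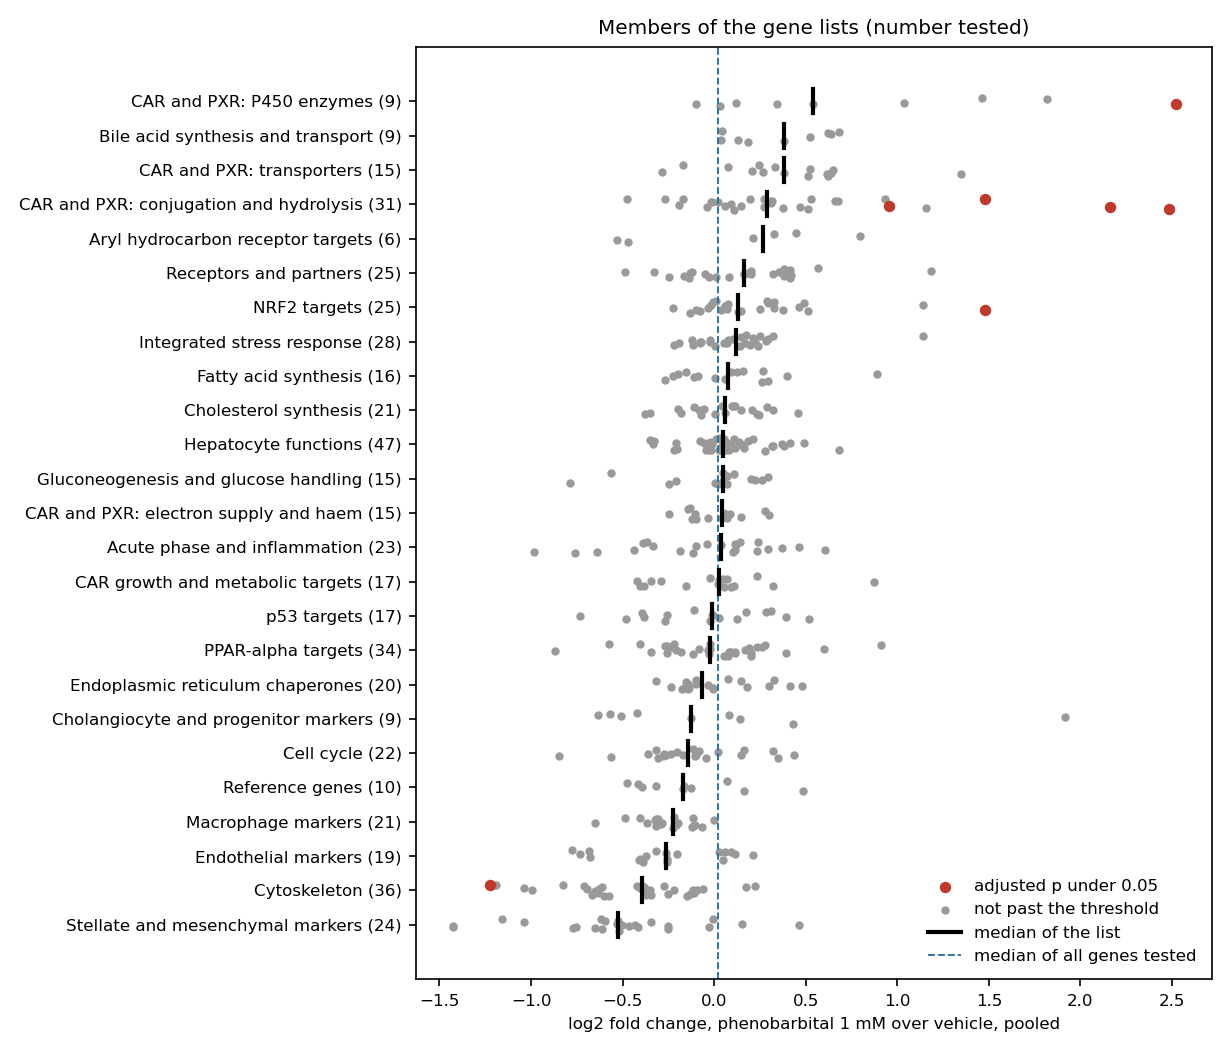
Pooled log2 fold change of each tested member of the gene lists with at least 5 members; red points have an edgeR adjusted p under 0.05, black bars are list medians and the dashed line is the median of all genes (0.02). The P450 list has the highest median (0.54) and the stellate and mesenchymal list the lowest (-0.52), and called members occur in 4 lists.

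Stress and lipid pathways gave little at 1 mM. NRF2 targets had 1 of 25 higher, Gsta2, with a median of 0.13, while 0.338% were called higher over all genes tested. At an unadjusted p under 0.05, 3 of the 25 were higher and 0 lower (12%), and DESeq2 called 3 higher. The NRF2 median was 0.004 without plate 1, -0.048 without day 7, 0.268 in co-culture and -0.015 in monoculture. The integrated stress response had 0 of 28 called, a median of 0.12 and Ddit3, its pro-apoptotic transcription factor, at -0.12 ± 0.28 (edgeR adjusted p 0.872), with 1 member higher at an unadjusted p under 0.05 and 1 called by DESeq2. Without the 3 co-culture libraries its median was 0.01. Endoplasmic reticulum chaperones (20 tested), PPAR-alpha targets (34), aryl hydrocarbon receptor targets (6), cholesterol synthesis (21), fatty acid synthesis (16), p53 targets (17), cell cycle (22), bile acid synthesis and transport (9), glucose handling (15), inflammation (23) and reference genes (10) each had 0 called by edgeR. In the order given, their medians were -0.07, -0.02, 0.27, 0.06, 0.07, -0.01, -0.14, 0.38, 0.05, 0.04 and -0.17. At an unadjusted p under 0.05 they held, in that order, 3, 3, 0, 0, 2, 2, 1, 3, 0, 3 and 4 genes, and DESeq2 called 1 chaperone and 3 reference genes. The share at that p was 16.1% over all genes tested. It was 40% among reference genes and 33.3% in bile acid synthesis and transport, and under 16.1% in the other lists of this series. The 4 reference genes were all lower, as were the 3 that DESeq2 called. The 3 bile acid genes were all higher, and 4 of the 9 tested are also in the transporter list. Without the 3 co-culture libraries the bile acid median was 0.10 and the aryl hydrocarbon receptor median -0.01.

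Each day was then fitted alone. On day 1 edgeR called 18 of 10273 genes (0.175%), 12 higher (0.117%) and 6 lower (0.0584%), with an unadjusted p under 0.05 in 1559 genes and 301 calls from DESeq2. Ugt2b1 rose by 2.09 ± 0.22 (adjusted p 1.30e-04), AABR07021930.1 by 2.86 ± 0.40 and Ugt2b10 by 1.92 ± 0.35. Nr3c2 rose by 1.07 ± 0.17 (0.00943), and the glucagon receptor Gcgr, singled out after its values were seen, by 1.10 ± 0.18 (0.0113). Cav1, Acta1 and Cryab fell by 1.06 ± 0.17, 1.26 ± 0.20 and 0.83 ± 0.12. Of the 18 genes 8 were also called in the pooled fit, which contains these libraries. AABR07005961.10.0000009 (a name as in the table) rose by 1.54 ± 0.28 and AABR07064810.1 fell by 0.84 ± 0.16. The count was 1 without the plate block, 2, 51, 5 and 8 without plates 1, 3, 5 and 7, and 153 with no filter on low counts.

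On days 3 and 7 edgeR called 0 of 9986 (0%) and 0 of 11578 genes (0%). Unadjusted p-values under 0.05 numbered 822 and 433, and DESeq2 called 31 and 12. Day 3 has 6 treated libraries on 3 plates. Values for the main genes were not small on those days: Ugt2b1 stood at 4.04 on day 3 and 2.14 on day 7 (edgeR adjusted p 0.352 and 0.125), Cyp2b2 at 2.61 and 2.67 (0.624 and 0.758) and Gsta2 at 1.83 and 2.26 (0.54 and 0.758). The smallest adjusted p on day 7 was 0.107, shared by Cyp2c6v1 at 1.51 and Ugt2b35 at 1.45.

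Whether the response differed between days was tested directly. The 2 interaction terms gave 0 genes by edgeR (0% of 12422), 311 genes with an unadjusted p under 0.05, and DESeq2 gave 0. The unadjusted p was 0.00956 for Gsta2, 0.033 for Ugt2b35, 0.0954 for Ugt2b1 and 0.696 for Cyp2b2, with an adjusted p of 1 for each. A difference between days was therefore not detectable in these wells, and its absence was not shown.

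**Figure D4:**
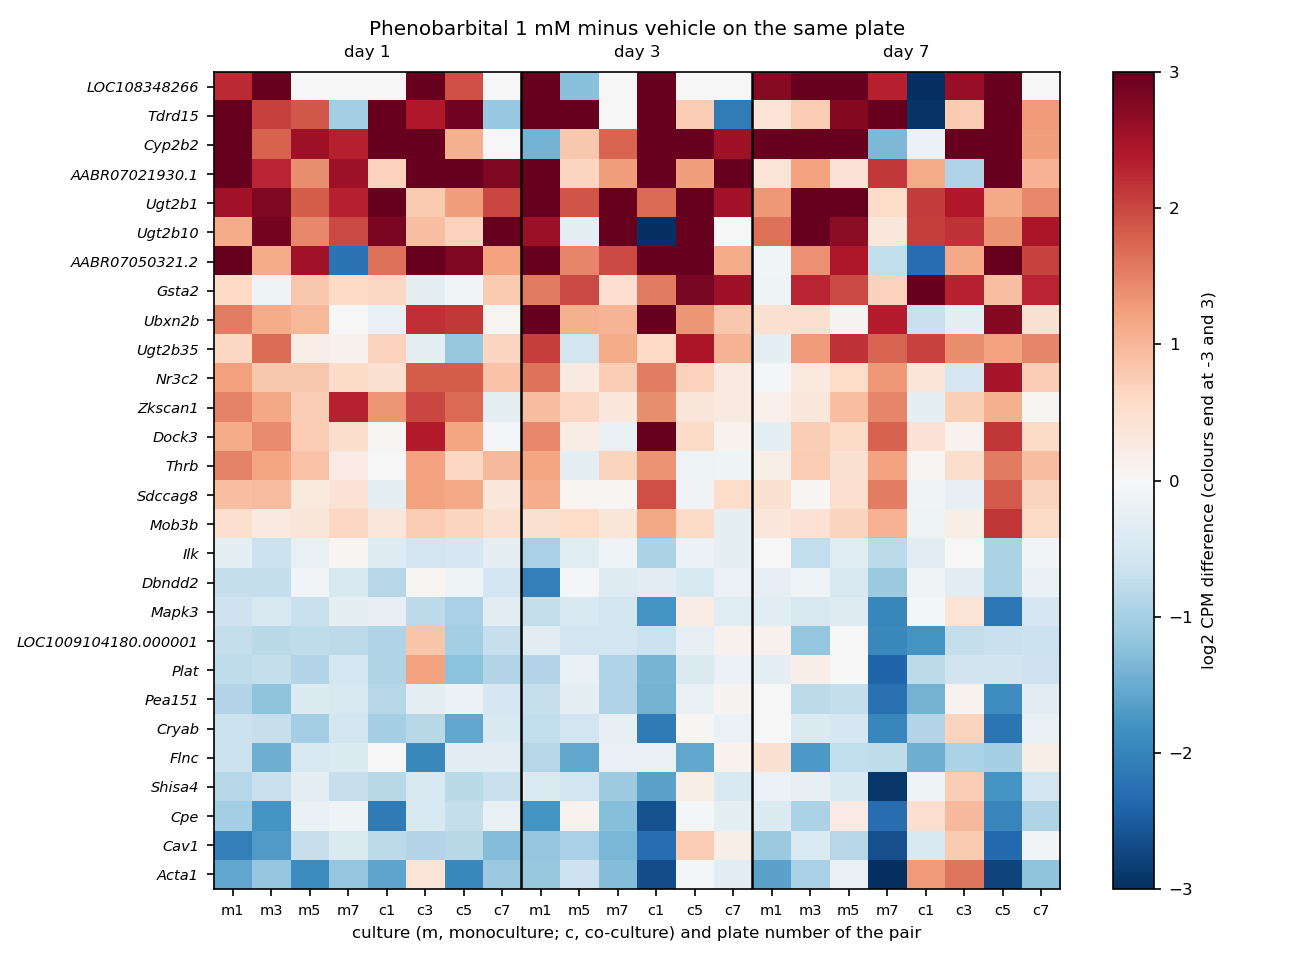
Log2 CPM difference of phenobarbital 1 mM minus vehicle on the same plate for 28 called genes (rows, ordered by pooled change) in 22 pairs (columns, by day, culture and plate). The row of Ugt2b1 is red in all 22 pairs, and the lower rows are blue in most.

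In co-culture alone, where both labels name phenobarbital, edgeR called 0 of 11891 genes (0%), DESeq2 called 4, and the unadjusted p was under 0.05 for 777. All 28 named and called genes had the pooled sign there, which is no independent support, since they were chosen from a fit that contains these libraries. Ugt2b1 stood at 2.25 (adjusted p 0.141), Ugt2b10 at 2.39 (0.649), Cyp2b2 at 2.90 (0.649), Gsta2 at 2.12 (0.649) and Cav1 at -0.58 (0.765). In monoculture alone edgeR called 2 of 11747 genes (0.017%), LOC108348266 at 3.77 (0.00671) and Cav1 at -1.31 (0.0238), DESeq2 called 36, and the unadjusted p was under 0.05 for 967. Monoculture values for Ugt2b1, Ugt2b10, Cyp2b2 and Gsta2 were 2.74, 2.03, 2.33 and 0.91 (0.125, 0.322, 0.541 and 0.459). The difference between cultures, tested as an interaction, gave 0 genes (0% of 12422), DESeq2 called 1, and the unadjusted p was under 0.05 for 136. For Cyp2b2 it was 0.45 ± 1.06 and for Ugt2b1 -0.56 ± 0.72 (co-culture minus monoculture, edgeR adjusted p 1 for both), intervals wide enough to hold sizeable differences either way.

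The place of 1 mM in the dose series was read from direct contrasts with 0.1 and 10 mM, which share the 1 mM libraries with the comparison above. Against 0.1 mM, edgeR called 1 of 13057 genes (0.00766%), Gsta2, at 1.74 ± 0.34 (adjusted p 0.0208), DESeq2 called 6, and the unadjusted p was under 0.05 for 613. Gsta2 at 0.1 mM had medians of 67.2, 7.46 and 8.52 CPM on days 1, 3 and 7, close to those of vehicle given above. The call was lost without each plate in turn. Ugt2b1 at 0.1 mM had medians of 30.8, 1.7 and 7.85 CPM, between vehicle and 1 mM on each day, and its difference of 1.12 ± 0.46 did not pass (0.916). Cyp2b2 at 0.1 mM had medians of 2.71 and 0.167 CPM on days 1 and 3, a day 7 range of 0.835 to 27.9 CPM and a difference of 0.53 ± 0.59 (0.922).

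Against 1 mM, 10 mM gave a far larger number of calls, 4341 of 13057 genes (33.2%), 2151 higher (16.5%) and 2190 lower (16.8%). The stress genes that had not passed at 1 mM were prominent: of the integrated stress response list 23 of 28 were higher at 10 mM and 0 lower, with Ddit3 at 4.41 ± 0.47 (edgeR adjusted p 1.13e-11), from a mean of 96.1 to 1960 CPM. NRF2 targets had 16 of 25 higher and 1 lower, and endoplasmic reticulum chaperones 13 of 20 higher. Tpm1 was lower by 2.60 ± 0.27 on the log2 scale, from a mean of 8690 to 1410 CPM, with 24 of 36 cytoskeletal genes lower, and 22 of 47 hepatocyte functions, 13 of 24 stellate and mesenchymal and 13 of 20 endothelial markers were lower too. Among genes with a mean of at least 10 CPM at either dose, the largest rises were those of LOC689599, Aknad1, Ipcef1, Acot1, a cytosolic acyl-CoA thioesterase, and the interferon-stimulated gene Rsad2, with 6.66, 4.53, 4.51, 4.31 and 3.90, and Ddit3. The largest falls were of Cfap100, a cilium protein, tenascin C (Tnc), the scaffold Akap12, Hrct1, LOC299282 and the chemokine Cxcl3, by 3.45, 3.12, 2.99, 2.91, 2.89 and 2.74.

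Of the 9 P450 genes 0 were called between 10 and 1 mM by edgeR, and 0 had an unadjusted p under 0.05. Cyp2b2 stood at -1.25 ± 0.68 (adjusted p 0.15), with 10 mM medians of 5.06, 0 and 0.0453 CPM on days 1, 3 and 7 against 4.46, 2.38 and 8.36 CPM at 1 mM. Of 34 conjugating and hydrolysing enzymes 4 were higher and 4 lower, each a smaller share than the 16.5% higher and 16.8% lower over all 13057 genes. Ugt2b1 stood at -1.11 ± 0.49 (0.0684), Ugt2b10 at -0.66 ± 0.47 (0.279) and Ugt2b35 at 0.44 ± 0.24 (0.157). Ugt2b1 had 10 mM medians of 90.3, 1.63 and 0.631 CPM and a day 1 range from 3.27 to 351 CPM, against 45.7, 8.12 and 12.5 CPM at 1 mM. Gsta2 rose by a further 2.32 ± 0.34 (5.40e-08), with 10 mM medians of 327, 177 and 344 CPM. Of the 16 named genes that rose at 1 mM, 3 were higher again at 10 mM (Gsta2, Thrb and Mob3b) and 1 lower (AABR07050321.2). Of the 12 that fell, 6 were lower again, among them Cav1 at -1.03 ± 0.30 and Ilk at -0.74. Among all genes 16.5% were higher and 16.8% lower, so the 3 of 16 are near the general share. The named genes were chosen with the same 1 mM libraries that enter this contrast.

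**Figure D5:**
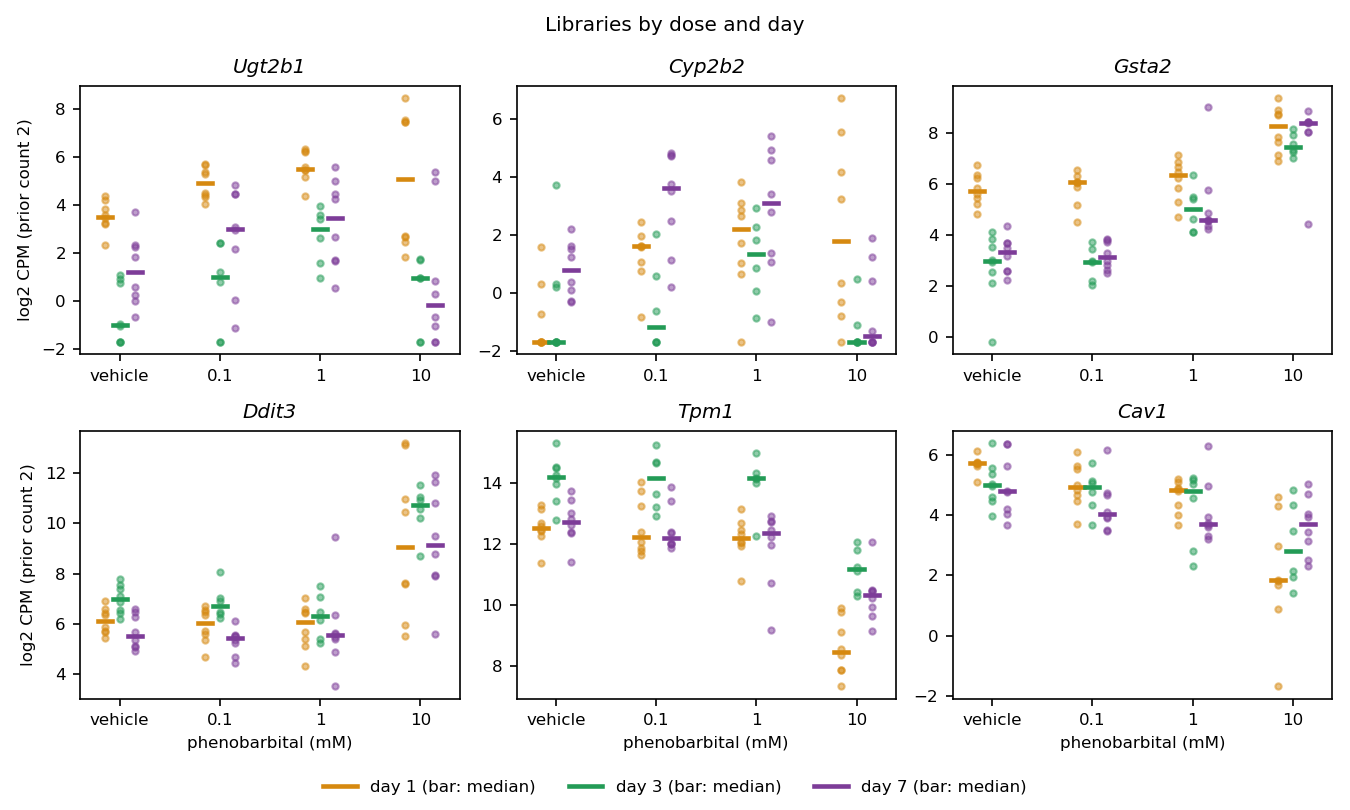
Log2 CPM (prior count 2) of 6 genes at vehicle, 0.1, 1 and 10 mM phenobarbital; a point is 1 library, bars are medians and colours are days. Ddit3 and Tpm1 leave the vehicle range mainly at 10 mM, whereas Ugt2b1 and Cyp2b2 are high at 1 mM and spread widely at 10 mM on day 1.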

How the data were processed

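The authors deposited 1 matrix of raw counts per detector probe and well, made by the assay's supplier per the labels' protocols. The submitters' processing notes name Bowtie. Its version, the build and the probe sequences: not given in the sources used here. Of 22253 probes 18241 are named by a symbol or synonym of RefSeq's rat genes (GRCr8), 468 more once a trailing decimal is dropped, and 3544 have no match, so those names are printed as in the table. Probes were summed to 21108 symbols. Counts were tested in R 4.3.3 with edgeR 4.0.16 (filterByExpr with a minimum count of 10, TMM, glmQLFit and glmQLFTest, two-sided), with DESeq2 1.42.0 as an alternative, and the fits were tested on simulated data. The standard error is the size of the log2 fold change divided by the root of F. The pooled fit has blocks for day by culture and for plate, the dose contrasts used 90 libraries, and log2 CPM has a prior count of 2.

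The number that names the plate served as the replicate number. Residuals of wells of the same plate correlated at over 0.1 in 18 of 22 pairs (mean 0.371), so the plates do not pair every well. The mean for other plates was -0.118. Residuals from group means sum to 0, so a negative value there follows from the positive one and is no separate reference. No 2 libraries of a group agreed within counting noise. Of 656 genes in 27 lists 557 have a probe. Genes were named by rank of p (12 higher, 12 lower, at a mean of 10 CPM or more), by list, by day or culture, by dose step, or by known role. The comparison, gene lists and named genes were chosen with earlier results of these data known. No column was left out.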

Additional observations from a re-analysis of the deposited data

Results flagged for a closer look

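For the 9 genes whose libraries are described one by one, 90 groups of 1 gene, culture, day and treatment were examined. Dixon's criterion marked a library far from the others of its group, which chance meets in about 1 of 20 groups of 4 or more. It was met by 10 values, and some libraries held more than 1 of them. Cyp2b2 had 3 such vehicle libraries, at 12.8 CPM in monoculture on day 3 (plate 1, others with a median of 0), at 2.69 CPM in co-culture on day 1 (plate 5) and at 0.843 CPM in co-culture on day 3 (plate 3). Gsta2 had the co-culture phenobarbital library of day 7 on plate 1 at 532 CPM, against a median of 24.1 CPM in the others, and the co-culture vehicle library of day 1 on plate 5 at 109 CPM, against 43.6 CPM. In the monoculture vehicle library of day 7 on plate 7 both Acta1, at 217 CPM against 37.9 CPM, and Cav1, at 82.5 CPM against 27.3 CPM, stood far above the others. Cav1 was low in the co-culture phenobarbital library of day 1 on plate 1, at 19.9 CPM against 29.1 CPM. The monoculture vehicle library of day 1 on plate 3 had Nr3c2 at 158 CPM against 41.7 CPM, and the co-culture vehicle library of day 3 on plate 1 had Ugt2b10 at 2.38 CPM against 0.281 CPM.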

How the results depend on the processing

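The number of genes called moved with nearly every choice. The sign of 27 of the 28 named genes that passed in the pooled comparison changed in 0 of 513 alternative values (LOC108348266, named for monoculture, is not among the 27). Of those values 189 stayed past the threshold and 324 did not. The 27 were chosen from the pooled fit and the alternatives reuse its libraries, so an unchanged sign is no independent support. The pooled count of 57 became 1 with no replicate block, 93 with RLE size factors, 504 with DESeq2, 37 with no filter on low counts, 7 with the share of the 50 most abundant genes as covariate, 37 without the day 3 vehicle libraries of plate 3, 4 with all doses in the fit, 0 and 2 in co-culture and monoculture alone, and 2 to 5 without 1 plate. Chosen after seeing the data, leaving out days 1, 3 and 7 gave 7, 6 and 25, leaving out the sparse vehicle library 27, and leaving out the 3 co-culture libraries 7. With plate blocked within day and culture it was 82, of which 43 were among the 57.
On day 1 the count of 18 became 1 with no replicate block, 301 with DESeq2, 153 with no filter, 35 with the covariate and 2 to 51 without 1 plate. On day 3 the count of 0 became 31, 87 and 3 with DESeq2, no filter and the covariate, 0 to 4 without 1 plate and 1 without the 3 co-culture libraries. On day 7 it became 12 and 1 with DESeq2 and the covariate and 0 to 1 without 1 plate. Co-culture alone gave 4 and 1 with DESeq2 and no filter. Monoculture alone, 2 genes, gave 0 with no replicate block, 6 with the block within day, 36 with DESeq2, 6 with no filter and 0 to 1 without 1 plate. DESeq2 called 1 gene for the difference between cultures. The 4341 calls of 10 against 1 mM became 2508 to 4669 without 1 plate (2620 without plate 5, 2508 without plate 7). The 1 call of 1 against 0.1 mM became 0 with the block within day, 6 with DESeq2, 2 with no filter, 2 with the covariate and 0 without any 1 plate. The cause of these moves was not tested.
Values near 0 that never passed changed sign under some settings: Abcc3 was -0.42 with the covariate, Alas1 0.25 with the covariate and 0.007 without day 3, Ddit3 between -0.429 and 0.017 without 1 plate, 0.12 with all doses, 0.10 in co-culture and 0.056 without day 3, Pck1 between -0.118 and 0.229 without 1 plate, -0.065 with all doses, -0.10 in monoculture, -0.02 without day 7 and -0.017 without the 3 co-culture libraries, and Por -0.008 without day 7. No library fell under the planned depth minimum, so leaving out shallow libraries was not run. At these depths genes near 1 CPM, such as Cyp2b2 and Nr1i3, rest on few counts per library.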
